A study of Mus musculus with 9 samples.

Results

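The prefrontal cortex of mice on 3 feeding regimens was measured on 3 single-colour microarrays, 1 per regimen, out of 9 arrays in the series. Those 3 arrays were taken because their labels name the prefrontal cortex; the other 6 hold amygdala and hypothalamus under the same regimens. All mice were male, wild-type C57BL/6J, 8 to 9 weeks old, and were killed at day 8, at 14:00, under ether. AD mice had free access to food. RFR mice went through repeated fasting and refeeding, with fasting on day 0, free feeding on day 1 and so on in turn. CR mice were calorie-restricted: over each 2 days they were given 50% of the food that the RFR mice had eaten. The labels do not say whether day 8 fell in a fasting or a feeding period of the RFR mice. RNA of 4 mice was pooled in equal amounts for each array, so the spread between mice was not measured, and no comparison within the prefrontal cortex has a test.

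The prefrontal cortex weighs food cues against internal state, and its excitatory neurons, interneurons and glia are known to respond to stress and to energy shortage. Fasting lowers insulin and raises glucocorticoids and ketone bodies in the whole animal. Neuronal activity switches on immediate early genes within minutes, whereas oligodendrocytes build myelin, a sterol-rich membrane, over days to weeks.

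Values are log2 signals relative to the 75th percentile of their own array, and a difference of 1 is 2-fold. A gene entered a comparison only where Feature Extraction, the scanner's software, marked it well above background on both arrays. Of the 28 markers of cortical excitatory neurons, 26 were well above background on all 3 arrays, and Otx1 on none. Of 27 measured in any array, 19 were higher than in amygdala and 21 higher than in hypothalamus. Of markers of neighbouring tissue, 5 of 9 for olfactory bulb, 5 of 8 for hippocampus and 5 of 13 for choroid plexus were well above background on all 3 arrays, while Eomes and Barhl2 of the first list, Prox1, Tdo2 and Iyd of the second and Ttr with 6 others of the third were so on none. The labels place the slice 2.5 to 3.5 mm posterior to bregma, which is not where the prefrontal cortex of a mouse lies; the markers are those of cortex and do not settle the level of the cut. The AD and RFR arrays shared a slide and the CR array lay on another, so slide and regimen cannot be told apart in the comparisons of CR. Repeat spots of 1 probe differed by 0.056 to 0.077 (median SD within an array).

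Each comparison asked which genes a regimen set apart. RFR and AD were measured together for 11843 genes, of which 25 were at least 2-fold higher (0.211%) and 90 at least 2-fold lower (0.76%) on the RFR array (0.971% in all). CR and AD were measured together for 11791 genes, with 51 higher (0.433%) and 82 lower (0.695%) on the CR array (1.13% in all). CR and RFR were measured together for 11846 genes, with 57 higher (0.481%) and 40 lower (0.338%) on the CR array (0.819% in all). The middle 95% of all genes lay between -0.62 and 0.49 for RFR minus AD and between -0.70 and 0.63 for CR minus AD. The split between higher and lower moved with the processing. Of the genes at least 2-fold apart in CR minus AD, 38.3% were higher on the CR array, against 25% after normexp background correction, 48.4% after quantile scaling and 59% in the authors' table. For CR minus RFR the share was 58.8%, against 40.6% and 73.2% after normexp and in the authors' table, and for RFR minus AD it was 21.7%, against 11.1% after normexp.

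The spots of genes at least 2-fold apart tended to lie beside other spots that differed the same way. For each gene, the spots printed within 4 rows and 1 column of its own, up to 26, were counted where they too differed at least 2-fold in the same direction. At least 5 such spots lay around 42 of the 89 genes lower in RFR than AD (47.2%), against 5.58% of the other genes of that direction. The corresponding shares were 32.9% against 4.54% for genes lower in CR than AD, and 19.6% against 1.84% for genes higher in CR. Leaving out genes with 3 or more such spots lowered the counts from 115 to 43 in RFR minus AD, from 133 to 69 in CR minus AD, and from 97 to 48 in CR minus RFR. The cause of the grouping was not tested, and the number of such spots is given beside most of the single genes named below; probes printed at 10 places have none.

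**Figure D1:**
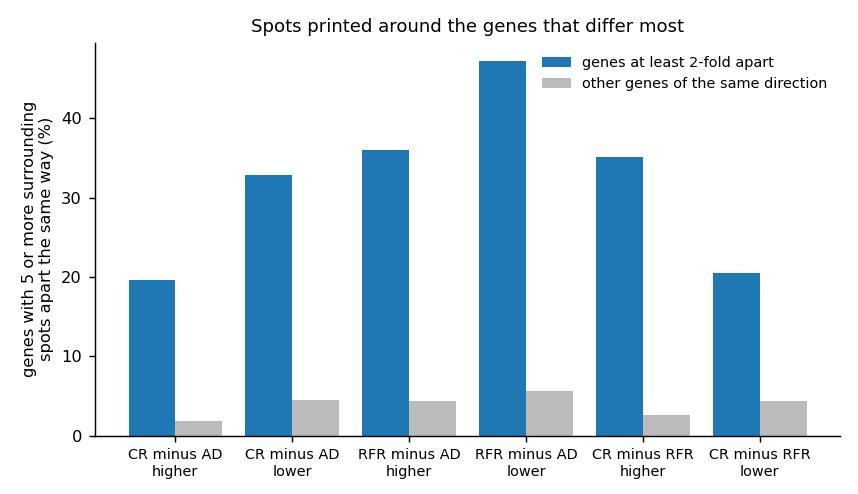
Share of genes, in percent, with 5 or more surrounding spots at least 2-fold apart in the same direction. Blue bars are genes at least 2-fold apart on the 3 prefrontal cortex arrays and grey bars are the other genes of that direction. Each blue bar stands above its grey bar, from 19.6% against 1.84% to 47.2% against 5.58%.

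Several genes with large differences in both comparisons with AD were brightest on the AD array, among them the osteocalcins and, in CR minus AD, a collagen. Bglap3, an osteocalcin-related gene, was at -1.29 on the AD, -3.93 on the RFR and -4.35 on the CR array. The AD array was the high one, by 2.65 and 3.06, and 0 of the 25 spots around it differed that way in either comparison. Bglap, which encodes osteocalcin, the main non-collagen protein of bone, was at -0.76, -4.82 and -5.62, and not well above background on CR. It was 16.8-fold lower on RFR than AD and at least 20.6-fold lower on CR, with 6 and 7 of 25 surrounding spots lower too. These 2 genes are near copies, and how far a probe reads both was not tested.

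Col1a1, a chain of type I collagen, was read by a probe printed at 10 places on the array. Its mean was 1.92 on AD, 0.51 on RFR and -0.57 on CR, with a spread between spots of 0.044 (SD) on AD. It was therefore 5.62-fold lower on CR than AD, against a standard error of 0.025 log2 units from the spots, which covers the array and not the animals. A second Col1a1 probe lay at -2.67, -4.22 and -5.12 (not well above background on CR), in the same order, and the remaining probe was at background on all 9 arrays. Col1a2, the partner chain, was at 2.17, 1.43 and 1.20. The other markers of bone-forming cells were mixed. Mepe, a matrix protein of bone cells, and Col13a1 had the same order, at -2.76, -3.07 and -3.53 and at -1.99, -2.07 and -2.46, by smaller steps. Others did not: Alpl, an alkaline phosphatase, was at -0.03, 0.62 and 0.11, Runx2, the master regulator of osteoblasts, at -2.98, -2.35 and -3.11, and Ibsp and Sp7 were at background on all 3 arrays. Of the whole list, 4 of 9 were lower in RFR minus AD (median 0.16), 6 of 8 in CR minus AD (-0.29) and 8 of 8 in CR minus RFR (-0.49).

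Other genes lower on both restricted arrays stood in more crowded neighbourhoods. Chil3, a chitinase-like protein of myeloid cells, was at -1.31 on AD, -3.53 on RFR and -3.69 on CR, with 9 to 11 of 26 surrounding spots lower too. Htr5b, a serotonin receptor gene, was at -2.04, -5.57 and -5.58, with 8 of 25 spots in RFR minus AD, and Aqp8, a water channel, at -1.73, -5.13 and -5.40, with 8 of 24. Neither was well above background on the CR array. Quieter surroundings were seen for Gucy2c, a guanylate cyclase receptor of the gut, at -2.17, -4.24 and -4.34 with 1 of 24 spots in CR minus AD, and for Upb1, a pyrimidine-degrading enzyme, at -2.31, -3.99 and -4.77 with 3 of 26. Arid5b, a chromatin regulator, was lower on RFR and lowest on CR, at 2.09, 1.30 and 0.31 with 0 of 26 spots, but another of its probes differed by -0.40 in CR minus AD, and the mean of its probes by -0.24.

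Genes higher on the CR array alone were dim. Dpt, which encodes the matrix protein dermatopontin, was at -5.12 on AD, at background on RFR and at -2.30 on CR, 7.04-fold over AD, with 4 of 26 surrounding spots higher too. Tert, the telomerase catalytic subunit, was at -3.55, -3.62 and -1.61 with 4 of 24 spots. Rims3, a presynaptic scaffold protein, was at -4.32, -4.68 and -2.25 with 8 of 25 spots, and Tcerg1l at -4.04, -4.12 and -1.61 with 10 of 25. Pmel, a melanosome protein, was at -4.67, -4.82 and -2.89 with 1 of 25 spots. After normexp correction, Rims3 and Pmel differed between CR and AD by 0.82 and 0.64, under 2-fold. Traf3ip2, an adaptor of interleukin-17 receptors, was well above background on the CR array only of the 3, at -1.42. It was at least 14.2-fold over AD, with 4 of 26 spots. In the whole series Traf3ip2 was well above background on 7 arrays, every amygdala and hypothalamus array among them. The exceptions were thus the AD and RFR arrays of prefrontal cortex, which shared a slide, and the cause was not tested.

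Vps72, a subunit of chromatin-remodelling complexes, was low on AD and higher on both restricted arrays, at -4.67, -2.92 and -2.78. None of the 26 surrounding spots was higher in CR minus AD, but 5 were in RFR minus AD, and after normexp the differences were 0.70 and 0.76. Dkk2 (an inhibitor of Wnt signalling), at -1.77, -3.87 and -4.06, and Hhip (an inhibitor of hedgehog signalling), at -2.99, -5.02 and -4.97, had the opposite order, each with 6 surrounding spots lower in CR minus AD.

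The pituitary hormone genes Prl and Gh were well above background on the RFR array alone, as in the other regions. A set of genes described further on was dark on the RFR array. Prl, which encodes prolactin, was at -7.38 on AD, -1.84 on RFR and -7.40 on CR, well above background on RFR alone and at least 10.6-fold over AD, with 3 of 25 surrounding spots higher. Gh, growth hormone, was at -7.50, -3.75 and -7.43, with 3 of 25. Prl was at -7.66, -1.43 and -8.19 in amygdala and at -7.16, -2.04 and -7.38 in hypothalamus, and Gh at -7.81, -3.18 and -7.33 and at -6.72, -3.65 and -7.38, so the RFR array was the bright one in all 3 regions. Cga, the shared subunit of the pituitary glycoprotein hormones, was at -6.07, -4.81 and -5.72, and Pomc, the precursor of the melanocortins and of corticotropin, at -0.18, 0.64 and -0.44. RFR was the highest array for both in amygdala too, with Cga at -6.18, -4.10 and -4.91 and Pomc at 0.29, 1.84 and -0.24. In hypothalamus it was not, with Cga at 0.77, 0.82 and 0.91 and Pomc at 4.88, 4.07 and 3.92. Of the 10 pituitary markers, Tshb, Fshb, Pou1f1, Ghrhr and Pitx1 were at background on all 3 arrays, and Lhb was highest on AD, by 0.29 over RFR and 0.36 over CR. Whether these levels come from cortex or from pituitary RNA was not tested.

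Xlr4b, an X-linked gene of a lymphocyte-regulated family, was the bright gene that most clearly set RFR apart. It was at -0.02 on AD, 1.50 on RFR and 0.18 on CR, 2.88-fold over AD with 0 of 25 surrounding spots higher. A second Xlr4b probe was well above background on the RFR array alone of the 3, at -4.16. In amygdala the chosen probe was at 0.69, 1.59 and 0.29, and in hypothalamus at 1.32, 2.21 and 1.47, so the RFR array was the highest in each region. Rarg, a retinoic acid receptor, was at -4.89, -3.16 and -5.66 with 1 of 26 spots, but its difference was 0.63 after normexp, and its second probe was well above background on CR alone. Zic4, a zinc finger transcription factor, was at -4.04, -2.27 and -4.51 with 5 of 17 spots, and Cd300lg, an endothelial glycoprotein, at -4.61, -2.69 and -5.09 with 4 of 25. Fgfr1, a fibroblast growth factor receptor, was at -1.83, -4.09 and -2.10, with 2 of 26 spots, but 3 other probes of it differed by a median of -0.06 in RFR minus AD.

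The largest differences in CR minus RFR were again mostly in dim genes. Cenpi, a centromere protein, was at -5.32 (not well above background), -5.61 and -1.73, 14.7-fold higher on CR than RFR with 3 of 21 spots. Muc15, a mucin, and Ireb2, an iron-responsive regulator, were 6.84-fold and 6.12-fold higher on CR, each with 11 surrounding spots higher too. In the other direction, Tnfrsf25, a receptor that co-stimulates T cells, was at 1.76 on AD, 2.47 on RFR and 0.91 on CR, 2.95-fold lower on CR than RFR with 0 of 24 spots. It was the one bright gene among the 8 largest of that direction. The same order was seen in amygdala, at 0.82, 0.96 and -0.58, and in hypothalamus, at -1.06, -0.73 and -1.53.

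Genes read by more than 1 probe or at many places on the array were few among those at least 2-fold apart. Of 3785 genes with 2 or more probes measured in CR minus AD, 5 were at least 2-fold lower by all their probes and 0 higher. These were 9930012K11Rik, Grin2b, Syn3, Ptms and Ago2, with at most 5, 1, 7, 1 and 0 surrounding spots apart the same way. Grin2b, a subunit of NMDA-type glutamate receptors, differed by -1.31 and -1.46 by its probes in CR minus AD and by -1.10 and -1.06 in RFR minus AD. Ptms, the acidic nuclear protein parathymosin, differed by -1.14 to -1.25 and by -1.10 to -1.12, and Ago2, the slicer of RNA interference, by -1.05 to -1.25 in CR minus AD. In RFR minus AD, 4 of 3819 such genes were lower by all probes and 0 higher, namely 9930012K11Rik, Col1a1, Ptms and Grin2b. In CR minus RFR, 1 of 3799 was higher, Cyp39a1, a bile acid hydroxylase, at -2.64 on AD, -3.05 on RFR and -1.90 on CR by its brighter probe.

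Of the 152 probes printed at 10 places and measured in CR minus AD, 3 were at least 2-fold lower and 0 higher. They read Col1a1, Esr1 and Actb. Esr1, the oestrogen receptor alpha, was at -3.54 on AD, -3.81 on RFR and -4.72 on CR. Actb, which encodes cytoplasmic actin, was at 0.53, -0.18 and -0.62, lower by 0.70 on RFR and 1.15 on CR than on AD. In hypothalamus Actb had the same order, at 0.28, -0.52 and -0.90, and in amygdala the opposite one, at -0.85, 0.28 and 0.96. Grin2b followed that pattern, at -3.91, -4.38 and -4.67 in hypothalamus and at -3.28, -2.99 and -2.25 in amygdala. So did Ago2 by its brighter probe, at 0.07, -0.37 and -0.99 and at -0.82, -0.52 and -0.29. Ptms and Syn3 had the order of Actb in hypothalamus, at 6.36, 5.66 and 5.04 and at -3.26, -3.53 and -3.76. In amygdala they were at 5.86, 5.60 and 6.15 and at -3.48, -3.19 and -3.31. 9930012K11Rik and Col1a1 did not have that order in hypothalamus. The cause of the shared order was not tested.

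Lists of genes differed by less than single genes. The median over all genes was 0.01 for RFR minus AD, -0.03 for CR minus AD and -0.02 for CR minus RFR, and 52.0%, 46.4% and 46.5% of genes were higher. The lists below are described against these values, with no test.

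**Figure D2:**
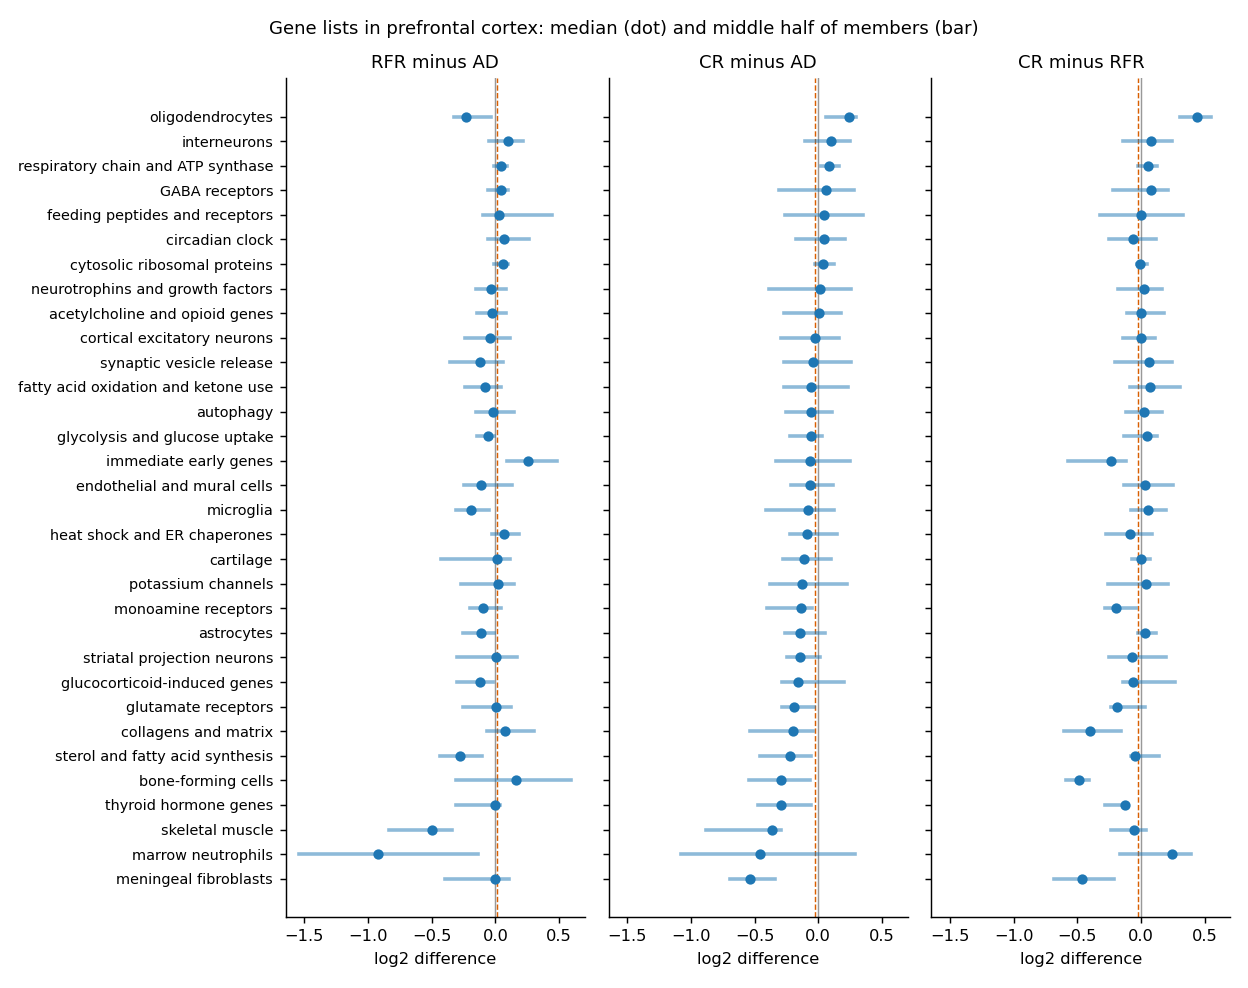
Median log2 difference of each gene list (dot) and the range from the lower to the upper quartile of its members (bar) in the 3 comparisons of prefrontal cortex arrays, for lists with 7 or more members measured in each. The dashed line is the median of all genes. Immediate early genes stand at 0.26 in RFR minus AD, oligodendrocytes at 0.24 and meningeal fibroblasts at -0.53 in CR minus AD.

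Most genes that neurons switch on when active had their higher value on RFR, against both AD and CR. Of the 21 immediate early genes measured, 17 were higher in RFR minus AD (median 0.26), and 17 of 20 were lower in CR minus RFR (-0.24). In CR minus AD, 9 were higher and 11 lower (-0.06). By the probe used for each gene, no member was 2-fold apart where it was measured on both arrays. The direction of the first and second of these medians was kept under 5 of the other settings planned for the lists, with the remaining setting not reported here.

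Egr2, an early growth response factor read at 10 places on the array, was at 1.56 on AD, 2.14 on RFR and 1.27 on CR. Egr4 was at 4.43, 4.94 and 4.19, and Nr4a1, an orphan nuclear receptor, at 5.67, 5.99 and 5.35. These had RFR as the highest and CR as the lowest array. Other members were higher on both restricted arrays: Fos was at -0.13, 0.24 and 0.13, Npas4, a neuron-specific activity factor, at -0.43, 0.17 and 0.23, Fosl2 at -2.27, -1.62 and -1.75, and Homer1 at 1.16, 1.60 and 1.82, although the probes of 2 of these genes disagree. A second Homer1 probe differed by -0.18 in CR minus AD and -0.08 in RFR minus AD, and a second Fosl2 probe by -2.27 in RFR minus AD. Other members were lowest on CR with little difference between AD and RFR, namely Arc, a synaptic plasticity protein, at 5.72, 5.70 and 5.07, and Klf4 at 1.83, 1.81 and 1.26. Bdnf, the neurotrophin, was at 1.23, 1.39 and 0.86, and its other probe had the same order. In amygdala 4 of 20 members were higher in RFR minus AD (-0.27) and in hypothalamus 9 of 20 (-0.01). None of them was among the genes that passed the test between regions described below.

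**Figure D3:**
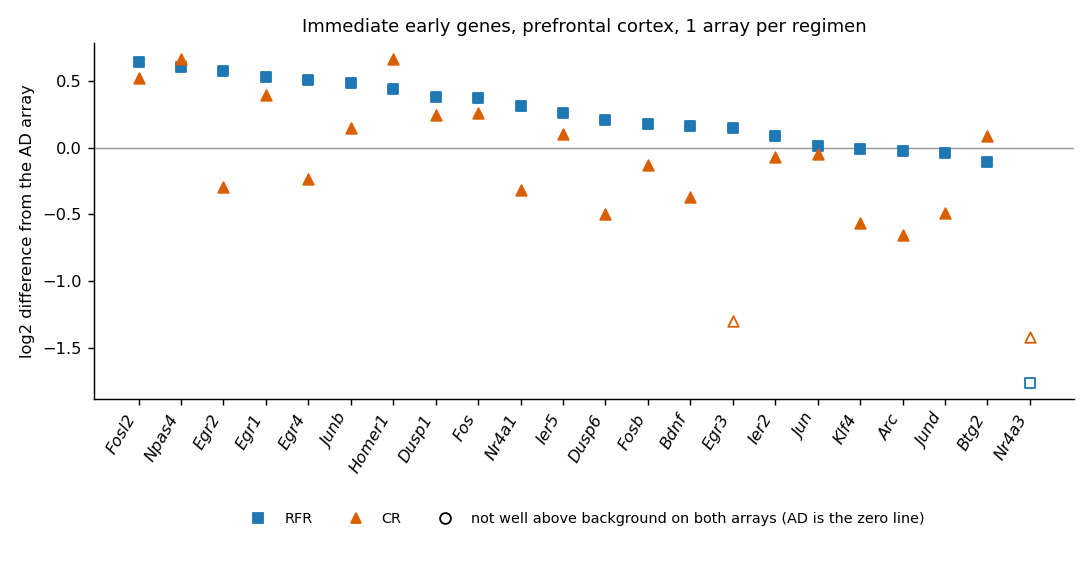
Log2 difference of each immediate early gene from the AD array (zero line), for the RFR (squares) and CR (triangles) arrays, ordered by the RFR value. Open symbols were not well above background on both arrays. The filled RFR squares run from 0.64 for Fosl2 to -0.11 for Btg2, while the CR triangles spread on both sides of 0.

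The stretches of DNA before these genes are shown because most members were higher together on the RFR array. RefSeq start sites of build GRCm38.p6 were matched by symbol for 18 of the 22 listed genes, but not for Egr1, Egr3, Arc and Ier2. In the 250 bases before a start, TGACG, the core of the cyclic AMP response element, was searched on both strands. It occurred before at least 1 start of 13 of the 18 genes and of 19.8% of all 27025 genes in the table. Counted by start, since some genes have several, it occurred before 15 of their 29 starts and 17.8% of all 32851. A CArG box, the site of serum response factor, occurred for 1 of the 18, Egr2, and for 1.62% of all genes. Sites farther than 250 bases before a start were not searched. Capitals mark these letters in 5 of the genes, written 5′ to 3′ on the gene's own strand; a match is no evidence of binding.
Egr2, chr10:67537619-67537868, plus strand: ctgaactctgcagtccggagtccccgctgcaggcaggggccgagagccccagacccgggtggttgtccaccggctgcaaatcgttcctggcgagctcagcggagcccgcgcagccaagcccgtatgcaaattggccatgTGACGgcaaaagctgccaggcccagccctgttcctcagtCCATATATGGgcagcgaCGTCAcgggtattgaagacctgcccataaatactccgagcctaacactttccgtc
Egr4, chr6:85513590-85513839, minus strand: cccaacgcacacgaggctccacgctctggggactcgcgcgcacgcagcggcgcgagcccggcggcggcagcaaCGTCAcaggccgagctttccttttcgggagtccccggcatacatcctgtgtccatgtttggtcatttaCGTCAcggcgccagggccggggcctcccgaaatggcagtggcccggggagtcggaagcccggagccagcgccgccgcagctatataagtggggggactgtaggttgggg
Nr4a1, chr15:101266596-101266845, plus strand: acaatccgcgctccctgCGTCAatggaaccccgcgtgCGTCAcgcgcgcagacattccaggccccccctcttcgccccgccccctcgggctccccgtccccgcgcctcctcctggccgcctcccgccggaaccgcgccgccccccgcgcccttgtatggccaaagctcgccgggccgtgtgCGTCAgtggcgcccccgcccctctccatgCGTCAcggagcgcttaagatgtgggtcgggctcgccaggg
Fos, chr12:85473640-85473889, plus strand: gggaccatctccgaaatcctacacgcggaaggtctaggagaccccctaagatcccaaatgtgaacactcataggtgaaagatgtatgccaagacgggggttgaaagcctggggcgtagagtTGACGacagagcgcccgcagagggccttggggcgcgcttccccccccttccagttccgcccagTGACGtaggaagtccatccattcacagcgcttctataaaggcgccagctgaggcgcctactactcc
Dusp1, chr17:26508473-26508722, minus strand: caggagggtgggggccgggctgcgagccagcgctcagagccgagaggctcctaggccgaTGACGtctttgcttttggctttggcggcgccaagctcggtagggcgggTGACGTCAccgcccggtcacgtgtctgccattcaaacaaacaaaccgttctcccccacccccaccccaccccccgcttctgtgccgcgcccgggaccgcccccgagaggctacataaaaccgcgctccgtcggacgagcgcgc
Nr4a1 held 4 of these core sites, Dusp1 3, and Egr2, Egr4 and Fos 2 each. In Dusp1, a phosphatase that ends MAP kinase signals, at 1.74 on AD, 2.12 on RFR and 1.99 on CR, the letters ran on to the complete palindrome TGACGTCA, which 1.77% of all genes hold.

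Myelin and oligodendrocyte genes were highest on the CR array. In CR minus RFR, 15 of 16 members were higher (median 0.44). They were higher in CR minus AD, 14 of 17 (0.24), and lower in RFR minus AD, 12 of 16 (-0.23). Cldn11, the tight junction protein of myelin, was at 0.77 on AD, 0.79 on RFR and 1.46 on CR. Mobp was at 0.25, -0.25 and 0.41, Mog at -2.14, -2.66 and -2.07, and Cnp at 3.14, 2.71 and 3.09, so that these 3 were set apart mainly by a low RFR array. Mag had no usable value on the RFR array by its brighter probe, and a second probe was at -0.07, -0.83 and -0.17. The linear signals of the 16 members with a value on each array summed to 75.5 on AD, 65.8 on RFR and 99.0 on CR, in units of the array's 75th percentile. CR minus RFR was positive for 17 of 17 members in amygdala (0.47) and 16 of 17 in hypothalamus (0.26), and CR minus AD for 14 of 17 in amygdala (0.29) but 8 of 17 in hypothalamus (-0.09). With the mean of all probes, the median for CR minus AD dropped to 0.07. In pooled tissue, fewer cells of a type and less RNA per cell cannot be told apart.

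Genes of meningeal fibroblasts, the cells of the membranes around the brain, were low on the CR array. In CR minus AD 13 of 14 were lower (median -0.53), with Dpt the exception, and in CR minus RFR 12 of 13 (-0.46). RFR minus AD gave 6 higher and 7 lower (0.00). Aldh1a2, which makes retinoic acid, was at 0.58 on AD, 0.18 on RFR and -0.39 on CR. Slc47a1, a drug and cation exporter, was at 0.53, 0.85 and -0.25, and its second probe had CR as the lowest array too. Slc13a4, a sulphate transporter, was at 2.82, 2.83 and 2.11, Igf2, an insulin-like growth factor, at 2.53, 2.21 and 1.74, and Ogn at 0.08, 0.33 and -0.46. In hypothalamus all 13 measured members were higher in CR minus AD (0.66), and in amygdala 6 were higher and 7 lower (-0.19). Matrix genes were lower beside them: 14 of 16 collagens and matrix genes were lower in CR minus RFR (-0.40), with Col3a1 at -1.30, -1.36 and -2.15. The part of meningeal tissue in the slices was not tested.

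**Figure D4:**
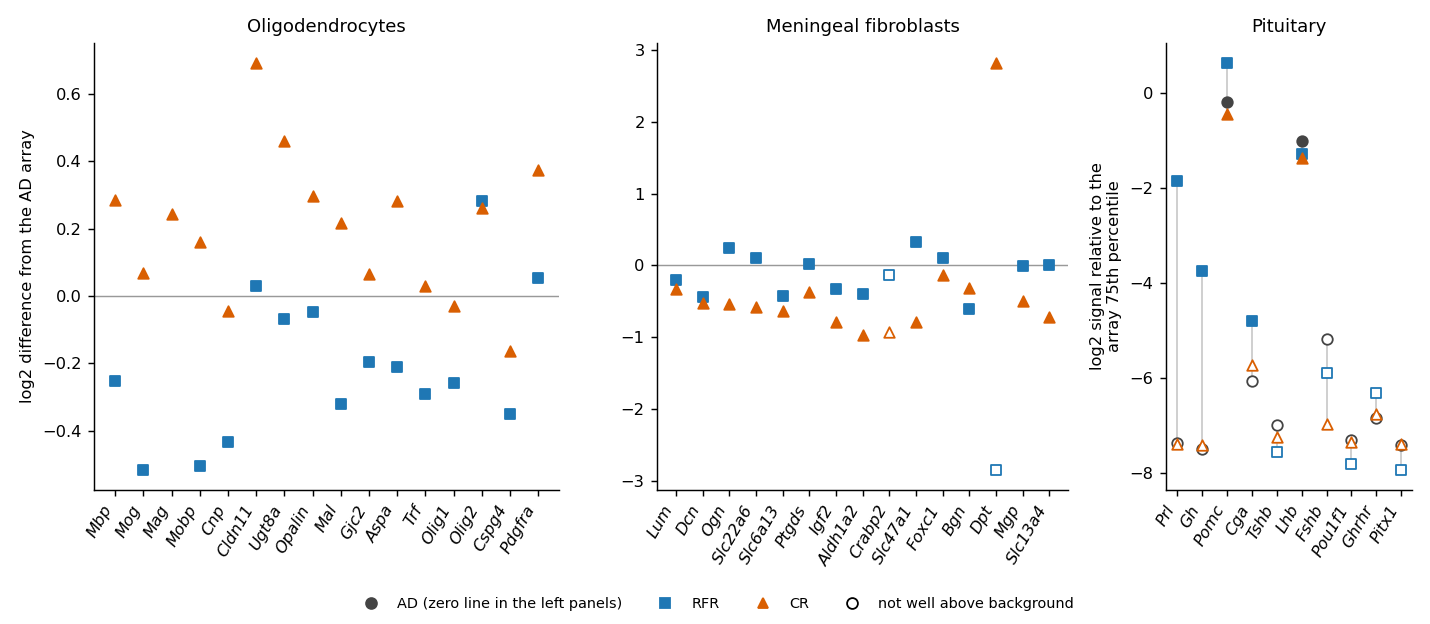
Left and middle, log2 difference of each marker from the AD array for the RFR (squares) and CR (triangles) arrays. Right, log2 level of 10 pituitary markers relative to the array's 75th percentile, with open symbols not well above background. 1 listed oligodendrocyte gene is not plotted. Cldn11 reaches 0.69 on CR, Aldh1a2 -0.97 on CR, and Prl and Gh stand clear of the other arrays on RFR.

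Genes of skeletal muscle were lower on both restricted arrays than on AD, and genes of marrow neutrophils lower on the RFR array. S100a9, a subunit of the calprotectin complex of neutrophils, was at 1.03 on AD, -0.52 on RFR and -0.18 on CR, and its partner S100a8 was at -2.99, -4.52 and -3.57. Of the marrow neutrophil genes, 7 of 8 were lower in RFR minus AD (median -0.93, but -0.30 after normexp and -0.41 when genes at background on any of the 9 arrays were left out) and 5 of 8 in CR minus AD (-0.46), a share not far from that of all genes, while Elane, Lcn2, Mmp8, Retnlg and Fcnb were at background on all 3 arrays. Of the muscle genes, 9 of 10 were lower in RFR minus AD (-0.50, but -0.22 after normexp) and all 8 in CR minus AD (-0.36). Tnnc2, a fast-muscle troponin, was at -1.80, -2.68 and -3.56, and Myh4, the fastest myosin, at -1.91, -2.84 and -2.88. Ckm, the muscle creatine kinase, was at background on all 3. S100a9, S100a8, Tnnc2 and Myh4 share with Bglap, Bglap3 and Col1a1 that AD was the highest array, and their part in those results was not tested.

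Enzymes that build sterols and fatty acids were mostly lower on both restricted arrays. In RFR minus AD 22 of 26 were lower (median -0.28), and in CR minus AD 19 of 25 (-0.22), whereas CR minus RFR gave 12 higher and 13 lower (-0.04). Mvd, which makes isopentenyl diphosphate, was at 1.18 on AD, 0.57 on RFR and 0.33 on CR, Lss, which closes the sterol rings, at -2.14, -2.83 and -2.88, and Fdft1, squalene synthase, at 2.35, 1.77 and 1.89. Some members on the fatty acid side were nearly level: Fasn, fatty acid synthase, was at 5.70, 5.91 and 5.82, Scd2 at 5.89, 5.73 and 5.92, and Elovl6 at 1.95, 2.04 and 1.97. The SREBP regulators Srebf1, at 3.28, 3.46 and 3.17, and Srebf2, at 0.03, -0.04 and 0.09, did not show the order of the enzymes. In hypothalamus 23 of 25 members were lower in RFR minus AD (-0.22), and in amygdala 13 of 26 (0.01).

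Fuel-use genes differed little. Fatty acid oxidation and ketone use gave medians of -0.08 in RFR minus AD and -0.06 in CR minus AD, and glycolysis -0.06 in both. Ppargc1a, the coactivator of mitochondrial biogenesis, was at 2.62 on AD, 1.83 on RFR and 2.17 on CR. Oxct1, which activates ketone bodies for use, was at 5.76, 5.49 and 5.39, and Angptl4, a fasting-induced lipase inhibitor, at 0.51, 0.00 and 0.82, low on RFR and high on CR. Genes of the respiratory chain were slightly higher on CR than AD in 19 of 24 (0.08), and cytosolic ribosomal proteins in 19 of 26 on each restricted array (0.06 in RFR minus AD, 0.04 in CR minus AD).

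Glutamate and monoamine receptor genes were lower on the CR array more often than higher. Of 17 glutamate receptor genes 14 were lower in CR minus AD (median -0.19), against 8 of 17 in RFR minus AD (0.00). Besides Grin2b, Grin2d was at -0.41 on AD, -0.94 on RFR and -0.91 on CR, and Gria2, the subunit that blocks calcium flow, ran the other way, at 4.50, 4.65 and 4.99. In the authors' table the count in CR minus AD was 11 of 17. Monoamine receptors were lower in 13 of 17 both in CR minus AD (-0.14) and in CR minus RFR (-0.20), with Adra2c, an adrenergic autoreceptor, at 1.66, 1.54 and 1.11, and Htr3a, an ion channel of interneurons, lowest on RFR, at 0.43, -0.21 and 0.54. GABA receptor genes showed no such excess, with 8 of 14 higher in each comparison. Neither did acetylcholine and opioid genes, with 7 higher and 6 lower in CR minus AD (0.005).

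Among genes of feeding signals, receptors differed in opposite directions. Cnr1, the cannabinoid receptor of presynaptic terminals, was at -0.39 on AD, -1.23 on RFR and -1.71 on CR. In hypothalamus Cnr1 had the same order, at -1.43, -2.22 and -2.49, and in amygdala CR was highest, at -1.03, -1.31 and -0.73. Mc3r, a melanocortin receptor, was at -0.15, -0.53 and -0.83. Npy1r and Npy5r, receptors of the hunger peptide NPY, were lowest on AD and highest on CR, at -1.80, -1.36 and -0.97 and at -2.37, -2.10 and -1.76, while Npy itself was at 3.34, 3.24 and 3.37. Crhr1, the main receptor of the stress peptide CRH, was at 2.59, 3.07 and 2.64. Pmch, which encodes the precursor of an appetite-raising hypothalamic peptide, was dim, at -4.78, -4.63 and -3.69. Ghsr, the ghrelin receptor, was well above background on RFR alone, at -4.43.

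Thyroid hormone genes were lower on CR. Of 11 measured, 9 were lower in CR minus AD (median -0.30) and 6 in RFR minus AD (0.00). Dio3, which inactivates thyroid hormone, was at -1.52 on AD, -1.89 on RFR and -2.64 on CR, and Dio2, which activates it, at 3.43, 3.07 and 2.94. Klf9, induced by thyroid hormone and glucocorticoids, was at 3.46, 3.01 and 2.89. Hr, a corepressor of the thyroid hormone receptor, was the highest on CR, at -3.90, -4.07 and -3.43.

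Glucocorticoid-induced genes were more often lower than higher in RFR minus AD, 12 of 16 (median -0.12), as they were in amygdala, 12 of 16 (-0.27), and hypothalamus, 14 of 16 (-0.33). In CR minus AD 9 of 16 were lower (-0.16). Sgk1, a kinase induced by corticosterone, was at 3.03 on AD, 2.89 on RFR and 3.52 on CR. The metal-binding protein gene Mt1 was at 4.11, 3.77 and 4.70, and Mt2 at 5.41, 4.92 and 5.45, both lowest on RFR. Fkbp5, a chaperone of the glucocorticoid receptor, was highest on AD, at -1.58, -1.80 and -1.91, and so was Tsc22d3, at 2.21, 1.93 and 1.89. Per1, a gene of this list and of the clock, was at 2.94 on AD and 2.12 on CR, with RFR above AD by 0.06.

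Clock genes gave medians of 0.06 in RFR minus AD and 0.04 in CR minus AD. The period genes were low on CR, with Per2 at -0.78 on AD, -0.27 on RFR and -1.04 on CR and Per3 at -3.24, -3.40 and -4.03 beside Per1, but a second Per2 probe differed by -0.41 in RFR minus AD, against 0.52 for the brighter one. Nr1d2, a repressor of the clock, was at 0.68, 0.93 and 1.22, and Arntl, which drives the clock, at 1.04, 0.86 and 1.08. All mice were killed at 1 hour of the day, so phase was not measured.

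The markers of cortical neurons themselves differed little. Excitatory neuron genes had medians of -0.05 in RFR minus AD and -0.02 in CR minus AD, with Slc17a7, the vesicular glutamate transporter of cortex, at 2.06, 2.03 and 2.06, and Fezf2, a deep-layer factor, at -0.08, -0.12 and -0.10. Tbr1, a factor of deep-layer neurons, was the exception past 2-fold, at -0.90, -0.61 and 0.13, with 1 of 17 surrounding spots higher. Interneuron genes were at 0.10 in both comparisons. Microglial genes were lower in RFR minus AD in 11 of 14 (median -0.19), and astrocyte genes in 11 of 14 (-0.11), with Aqp4, the astrocyte water channel, at 0.62, 0.07 and 0.19 by the brighter probe.

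A test was possible for 1 question, whether a regimen's difference in prefrontal cortex departed from the mean of the same difference in amygdala and hypothalamus. limma fitted region, regimen and a prefrontal cortex term for each regimen over all 9 arrays and 12535 genes, with 2 residual degrees of freedom that come from the other regions. The single prefrontal cortex arrays were assumed to vary like them, and the regions of a regimen may share mice. In prefrontal cortex the AD and RFR arrays shared a slide, but in amygdala and hypothalamus they lay on different slides. Slide and region therefore cannot be told apart in the term for RFR minus AD. For CR minus AD, 0 genes passed a Benjamini-Hochberg adjusted p of 0.05 with limma (0% of those tested), 285 had an unadjusted p under it, and the lowest adjusted p was 0.0649. For RFR minus AD, 19 genes passed (0.152%), all of them lower in prefrontal cortex, and 260 had an unadjusted p under 0.05.

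The 10 genes with the largest terms among those that passed were at background on the prefrontal cortex RFR array, and 8 of them were well above background on each of the other 8. Slc39a11, a zinc transporter, was at 0.94 on AD, -6.40 on RFR and 0.75 on CR, and between 1.27 and 1.94 on the other 6 arrays; it was at least 102-fold lower on RFR than AD, and its prefrontal cortex term passed (limma adjusted p = 0.0018, and from 8.64e-10 to 0.00617 over 7 alternatives). Tctn2, a protein of the ciliary transition zone, was at 0.01, -7.51 and 0.27, at least 53.3-fold lower than AD (limma adjusted p = 0.00188), and Zfp871 at 0.79, -6.02 and 0.98, at least 91.4-fold lower (limma adjusted p = 0.00503). An RFR signal at background gives a bound only, so the fitted sizes have no order. With signals under an array's floor set to that floor, 17 genes passed (16 lower and 1 higher), including 8 of these 10 but not Manea or Tfap4. Yrdc, a tRNA-modifying enzyme, was at 0.74, -5.53 and 0.70, yet a second Yrdc probe differed by 0.01 in RFR minus AD. The others were Plekha6, Pygm (the muscle form of glycogen phosphorylase), Ticrr, Col17a1, Manea and Tfap4. Of the surrounding spots of these 10, 0 (Zfp871) to 9 (Col17a1) were lower too. Genes seen on 8 arrays and at least 2-fold darker on the remaining 1 numbered 11 for this array and 0 to 3 for each of the other 8. All 11 were printed in the first 100 rows of the array, which held 18.4% of all genes. The cause was not tested. Bglap, Aqp8, Otop3, Htr5b and Csta2, outside the 10 genes above, passed too but were low on both restricted arrays. AD was their highest prefrontal cortex array, as for Csta2 at -2.78 on AD, -5.89 on RFR and -5.65 on CR. Bglap and Otop3 were well above background on only 2 of the 8 arrays other than prefrontal cortex RFR. For these genes the other regions therefore gave mostly values not well above background. Otop3 no longer passed with signals under an array's floor set to that floor. When every gene at background on any of the 9 arrays was left out, 0 genes passed and 101 had an unadjusted p under 0.05 with limma.

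**Figure D5:**
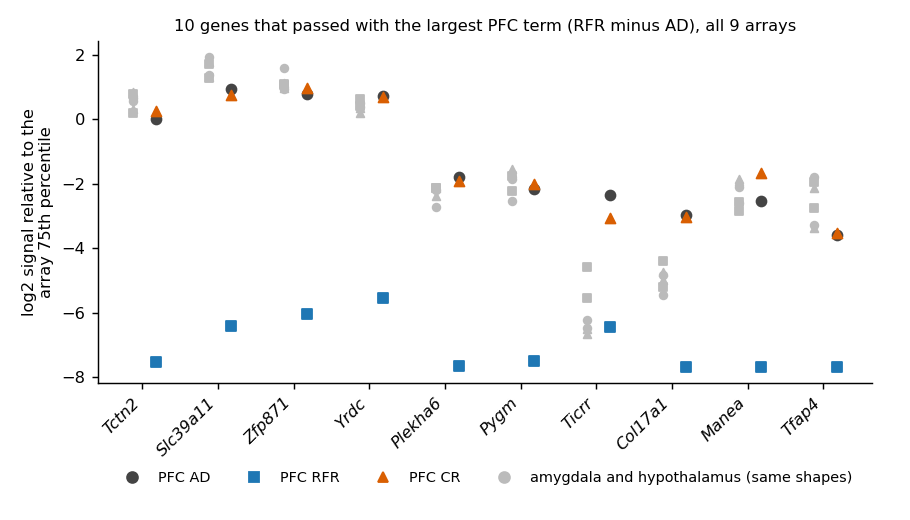
Log2 level, relative to the array's 75th percentile, of the 10 genes with the largest fitted prefrontal cortex term for RFR minus AD among those that passed the test. Coloured symbols are the 3 prefrontal cortex arrays and grey symbols the amygdala and hypothalamus arrays, with shapes by regimen. The blue squares of the RFR array lie between -5.53 and -7.68, below the other 2 prefrontal cortex arrays for every gene.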

How the data were processed

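Each array held pooled RNA of 4 mice, labelled with Cy3 from 400 ng, on an Agilent Whole Mouse Genome array. Per the file headers, Feature Extraction 9.5.1.1 made the deposited processed signal, an intensity corrected for background and spatial trend within the array. Its log2 was taken and the array's 75th percentile subtracted; outlier spots were left out and repeat spots averaged. A gene was read by that probe of it whose mean over all 9 was highest; 22951 of 41174 probes matched a symbol in RefSeq, giving 16358 genes. The authors' deposited table holds the ratio of each array to the AD array of its region; its log2 agreed within 0.01 with these differences for 99.3% of values on the RFR and CR arrays but for a constant per array, and it was an alternative. Bounds used the lowest signal well above background on the dim array (log2 -5.24 on AD, -5.73 on RFR, -5.12 on CR). The error model of Feature Extraction gave a difference a median error of 0.20. limma 3.58.1 in R 4.3.3 fitted region terms and was tested on simulated data; Python 3.11.15, pandas 2.3.3 and numpy 2.4.6 did the rest. normexp used median spot signals with an offset of 50. No other per-sample columns were used.

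Named genes were the 12 (8 in CR minus RFR) largest differences per direction, the 3 largest bounds per direction, up to 6 or defining members of each list, and up to 10 genes of the fit. Members and lists were chosen with earlier results of these data known; Xlr4b probes, Actb, Esr1 and other genes of repeated probes were picked with their values in view. The number of arrays, 1 per group, limits the precision. Some members of the lists are counted but not reported here by name.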

Additional observations from a re-analysis of the deposited data

Results flagged for a closer look

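The prefrontal cortex difference between RFR and AD departed from that of amygdala and hypothalamus in 19 genes by limma's test of the difference, all lower. Among the 10 named, the fitted terms, in log2 units, were -7.40 for Tctn2, -7.18 for Slc39a11, -6.62 for Zfp871, -6.35 for Yrdc, -6.20 for Plekha6, -5.52 for Pygm, -5.37 for Ticrr, -5.07 for Col17a1, -4.77 for Manea and -4.30 for Tfap4. Of these, Tctn2, Slc39a11, Zfp871, Yrdc, Plekha6, Pygm, Manea and Tfap4 were well above background on the other 8 arrays, Col17a1 on 5 and Ticrr on 3. Each was at background on the RFR array, so these terms rest on values without a measured level and have no order by size. Slide and region cannot be told apart in these terms. The bounds on RFR minus AD were at least 102-fold for Slc39a11, 91.4-fold for Zfp871, 77-fold for Yrdc and 53.3-fold for Tctn2, and 4.46-fold to 15.3-fold for the others. A second Yrdc probe differed by only 0.01 in RFR minus AD. The 11 genes seen on the other 8 arrays and at least 2-fold darker on this one were all printed in its first 100 rows. Those rows held 18.4% of all genes, and the cause was not tested. Bglap, Aqp8, Otop3, Htr5b and Csta2, not among the 10, were low on the CR array too, with AD the highest prefrontal cortex array. Bglap and Otop3 were well above background on only 2 of the 8 arrays other than prefrontal cortex RFR.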

How the results depend on the processing

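No paired analysis was possible because each group holds 1 array. Counts of genes at least 2-fold apart kept within 1.5 times of the reported ones under quantile scaling, median centring and the mean of all probes in each comparison. They were 56, 36 and 32 after normexp for CR minus AD, RFR minus AD and CR minus RFR, which adds an offset that shrinks dim genes, and 755, 831 and 731 with no filter on dim genes. In RFR minus AD they were 75 in the authors' table and 73 when each gene had to exceed background on every 1 of the 9 arrays. Of alternatives added after the data were seen, leaving out genes with 3 or more surrounding spots apart gave 69, 43 and 48, and with 5 or more gave 64 in RFR minus AD. Of 64 differences of named genes, 20 were under 2-fold after normexp and 7 with the mean of all probes; 0 changed direction. The fit's count for CR minus AD was 10 after normexp, 3 in the authors' table and 1 without the amygdala CR array. For RFR minus AD it was 36 after normexp, 7 with quantile scaling, 0 with all 9 arrays required (101 at an unadjusted p under 0.05 with limma) and 10 with the mean of all probes; with signals below the floor set to it, added later, it was 17, and 0 for CR minus AD (247 at an unadjusted p under 0.05 with limma). The adjusted p rose above 0.05 in 11 of 67 alternative values of the 10 named genes. Dim genes and 1 array per group limit all values. The cause of these changes was otherwise not tested.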
